A study of Mus musculus with 19 samples.

Results

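The genes described here are 9 genes for secreted signals, matrix-bound signals and signal-producing enzymes: Ptgs2, Inhba, Csf1, Prss23, Pappa, Ctgf, Cyr61, Thbs1 and Prl2c2. They were picked by name from the 22756 entries of the gene tables because their reads were high in an unfractionated culture treated with AICAR and low in fractions sorted after AICAR. All 9 were found. The contrast between that culture and the sorted fractions therefore chose the genes. Its values are a description and carry no test. Levels over all groups were in view when the genes were chosen, so counts of genes in the other comparisons are set beside the share of all genes called and are not offered as support for the choice.

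All 19 libraries came from mouse embryonic stem (ES) cells of the Rex1 GFPd2 reporter line, in which a short-lived green fluorescent protein (GFP) reports the activity of Rex1, also called Zfp42, a marker of naive pluripotency. Dishes were coated with gelatin and no feeder cells are named in the protocols. AICAR is a nucleoside that cells turn into an AMP mimic, an activator of the energy sensor AMPK. The groups with 1 library each were undifferentiated cells in LIF with MEK and GSK3 inhibitors, cells after 2 days in serum-containing differentiation medium, SSEA1-negative GFP-negative cells sorted on day 2, those sorted cells kept to day 15 without AICAR, the same kept to day 15 with AICAR and left unfractionated (the whole AICAR culture), and the GFP-negative fraction of the AICAR culture. SSEA1 is a surface sugar that ES cells lose as they differentiate. The AICAR GFP-positive fraction had 3 libraries. The titles do not say whether the fractions came from the same dish as the whole AICAR culture, or whether together they held all its cells. Below they are called fractions of that culture by title only. The colony lines (8 libraries, numbered 1, 3, 4, 5, 6, 7, 9 and 10) were grown from GFP-positive colonies picked from AICAR cultures, and the sorted lines (2 libraries) from GFP-positive cells sorted from them, both expanded in LIF with the same inhibitors. Titles decided the groups where the labels' sorting field disagreed with them, which was the case for the unsorted day-2 library and for both AICAR fractions. Depth was 5771671 to 8262357 reads in genes for 17 libraries. It was higher, at 12751260 and 14233421, for GFP-positive replicates 1 and 2, the only libraries of a second sequencing project named in the file headers. Levels are in CPM, reads of a gene scaled to a common library size (counts per 1000000 reads in genes). Ratios between single libraries carry an exact 95% interval that covers counting error only, since neither library has a replicate. In these bulk samples, fewer cells of a type and less RNA per cell cannot be told apart.

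Several of the genes are known as products of cells that respond to serum, stretch or transforming growth factor beta (TGF-beta). Ctgf and Cyr61 are much-used targets of the coactivators YAP and TAZ with TEAD factors, and Thbs1 can release active TGF-beta from its latent complex. Ptgs2 and Cyr61 are also rapidly induced by growth factors in fibroblasts, and Prl2c2 (proliferin) was first known from growing mouse fibroblasts and is made by placental giant cells.

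Promoter windows are shown for 3 of the genes, to set the start of Cyr61, which kept a high level in the GFP-negative fraction, beside those of Ptgs2 and Inhba, which did not. The RefSeq promoter table (build GRCm38.p6) holds windows of 250 bases before to 50 after a gene start for 5 of the 9 genes. Those of Ptgs2, at chr1:150099781-150100080 on the plus strand, Inhba, at chr13:16011601-16011900 on the plus strand, and Cyr61 (listed as Ccn1), at chr3:145649936-145650235 on the minus strand, read 5′ to 3′ as follows. Capitals mark matches to 4 motifs searched on both strands: the TEAD motif GGAATG, the cAMP response element half-site TGACG, the AP-1 motif TGANTCA and the TATA box TATAAA.
Ptgs2: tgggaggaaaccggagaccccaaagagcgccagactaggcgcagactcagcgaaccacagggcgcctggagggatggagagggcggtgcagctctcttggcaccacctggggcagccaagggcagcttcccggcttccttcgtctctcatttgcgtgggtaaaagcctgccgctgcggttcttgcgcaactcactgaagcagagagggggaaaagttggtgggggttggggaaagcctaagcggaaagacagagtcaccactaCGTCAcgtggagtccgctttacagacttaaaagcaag
Inhba: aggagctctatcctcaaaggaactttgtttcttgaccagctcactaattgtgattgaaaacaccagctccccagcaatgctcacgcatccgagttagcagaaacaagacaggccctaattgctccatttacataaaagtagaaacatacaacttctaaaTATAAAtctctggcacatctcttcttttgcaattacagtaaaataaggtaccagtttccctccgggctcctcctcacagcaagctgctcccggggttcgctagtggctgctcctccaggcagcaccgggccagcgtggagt
Cyr61: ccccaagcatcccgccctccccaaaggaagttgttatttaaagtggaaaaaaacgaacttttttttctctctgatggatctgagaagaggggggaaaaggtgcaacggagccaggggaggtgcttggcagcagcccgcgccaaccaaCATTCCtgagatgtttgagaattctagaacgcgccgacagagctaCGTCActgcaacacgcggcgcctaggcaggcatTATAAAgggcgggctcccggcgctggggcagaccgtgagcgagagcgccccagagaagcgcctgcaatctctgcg
The Ptgs2 window held 1 cAMP half-site, 13 bases after the start base of the entry. In the Inhba window the match was 1 TATA box, at position -91. The Cyr61 window held a TEAD motif at -103, a cAMP half-site at -58 and a TATA box at -25. Of the windows not shown, that of Csf1 held none of the 4 motifs, and of the 7 listed for Prss23, 5 held a cAMP half-site, of which 2 also held the AP-1 motif. In the 3 windows shown no matches overlap, while some Prss23 windows overlap and share matches. Among 32851 promoter windows of this length, 14.7% held the TEAD motif, 20.8% the cAMP half-site, 7.81% the AP-1 motif and 13.6% the TATA box. The motifs were chosen with the sequences in view, and a match is a description of letters and not of binding.

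In the whole AICAR culture the genes stood far above the sorted AICAR fractions, except Ctgf and Cyr61, which were nearly as high in the GFP-negative fraction. Because the titles do not say that the fractions are parts of the same culture, the whole culture is not read as their mixture. The highest of the 4 fraction libraries was the GFP-negative one for all 9 genes. In the whole culture, 7 of the 9 were more than 2-fold above it. Over all genes with at least 100 reads in the whole culture, 4.93% were, with a median ratio of 0.842. This contrast chose the genes, so nothing is read from that difference.

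**Figure D1:**
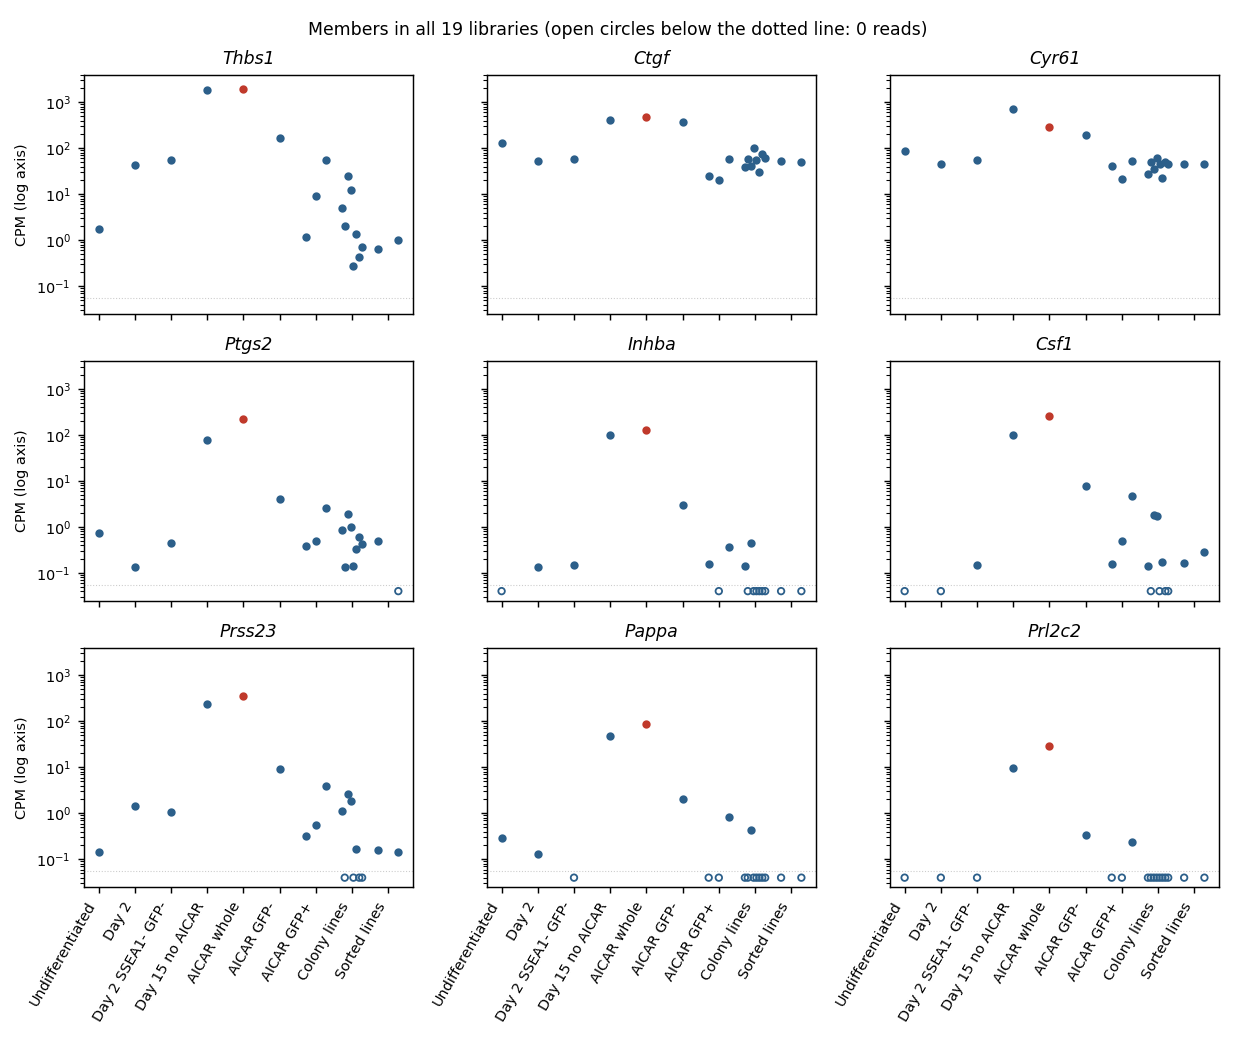
Level of each of the 9 genes in all 19 libraries, in CPM on a log axis, with 1 point per library and the whole AICAR culture in red. Open circles are libraries with 0 reads. Day 15 without AICAR and the whole AICAR culture hold the 2 highest points in each panel, from 9.72 and 29.2 CPM for Prl2c2 to 1866 and 1949 for Thbs1.

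Thbs1, a matrix glycoprotein that binds Cd36 and Cd47, had the highest level per length of the 9 in the whole AICAR culture. It stood at 1.76 CPM in undifferentiated cells, 43.0 on day 2, 54.7 in the SSEA1-negative GFP-negative cells and 1866 on day 15 without AICAR. With AICAR it was at 1949 CPM in the whole culture, 167 in the GFP-negative fraction and 1.18, 9.20 and 55.1 in GFP-positive replicates 1, 2 and 3. The colony lines held 0.282 CPM at the lowest, 1.69 at the median and 24.7 at the highest, and the sorted lines 0.640 and 0.991. Thbs1 was thus higher already on day 2, the one gene of the 9 for which the interval of the day-2 sorted cells over undifferentiated cells lay above 1 (31.1-fold, 17.6 to 60.7). The whole AICAR culture was 11.7-fold (10.9 to 12.5) above the GFP-negative fraction.

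Ctgf, a CCN-family matrix protein, was present in every library. It stood at 131 CPM in undifferentiated cells, 52.5 on day 2, 57.3 in the SSEA1-negative GFP-negative cells and 403 on day 15 without AICAR. With AICAR it was at 486 CPM in the whole culture, 366 in the GFP-negative fraction and 25.3, 20.8 and 57.5 in the GFP-positive replicates. Its colony lines ranged from 30.8 to 103 CPM with a median of 57.3, and the sorted lines were at 52.8 and 50.7. Whole culture and GFP-negative fraction differed 1.33-fold (1.26 to 1.41), so the description "low in its sorted fractions" held for Ctgf in the GFP-positive libraries only.

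Cyr61, the other CCN protein chosen, had its highest level on day 15 without AICAR and not in the whole AICAR culture. It stood at 89.0 CPM in undifferentiated cells, 45.1 on day 2, 54.7 in the SSEA1-negative GFP-negative cells and 724 on day 15. With AICAR it was at 288 CPM in the whole culture, 196 in the GFP-negative fraction and 40.5, 21.8 and 52.9 in the GFP-positive replicates. Colony lines held 23.1 to 62.0 CPM, with a median of 45.5, and sorted lines 45.3 and 45.5. The whole culture was 1.47-fold (1.36 to 1.59) above the GFP-negative fraction, the smallest ratio of the 9 after that of Ctgf.

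Inhba encodes the beta A subunit whose dimer is activin A, a TGF-beta family ligand. It was at or near 0 before day 15, with 0 reads in undifferentiated cells, 0.131 CPM after 2 days and 0.150 in the cells sorted then. It reached 96.9 CPM on day 15 without AICAR and 128 in the whole AICAR culture. In the GFP-negative fraction it was at 2.95 CPM, and in the GFP-positive replicates at 0.157, 0 and 0.363. Inhba had reads in 2 of the 8 colony lines, line 1 at 0.140 and line 4 at 0.444 CPM, and in neither sorted line. The whole culture was 43.4-fold (27.0 to 74.9) above the GFP-negative fraction.

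Csf1 is the colony-stimulating factor that macrophages need, and acts through the receptor Csf1r. It had 0 reads in undifferentiated and day-2 cells and stood at 0.150 CPM in the day-2 sorted cells. It was at 97.4 CPM on day 15 without AICAR, 259 in the whole AICAR culture, 7.62 in the GFP-negative fraction and 0.157, 0.492 and 4.72 in the GFP-positive replicates. Colony lines held 0 to 1.77 CPM with a median of 0.0698, and sorted lines 0.160 and 0.283. The whole culture was 34.0-fold (25.2 to 47.0) above the GFP-negative fraction.

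Ptgs2 is cyclooxygenase-2, the inducible enzyme of prostaglandin synthesis. It stood at 0.734 CPM in undifferentiated cells, 0.131 on day 2, 0.450 in the SSEA1-negative GFP-negative cells and 76.9 on day 15 without AICAR. With AICAR it was at 220 CPM in the whole culture, 3.98 in the GFP-negative fraction and 0.392, 0.492 and 2.54 in the GFP-positive replicates. Colony lines held 0.136 to 1.92 CPM with a median of 0.507, and sorted lines 0.480 and 0. The whole culture was 55.3-fold (36.7 to 87.5) above the GFP-negative fraction.

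Prss23 and Pappa are secreted proteases, and Pappa cleaves the insulin-like growth factor binding proteins Igfbp4 and Igfbp5. Prss23 stood at 0.147 CPM in undifferentiated cells, 1.44 on day 2, 1.05 in the SSEA1-negative GFP-negative cells and 241 on day 15 without AICAR. It was at 360 CPM in the whole AICAR culture, 9.18 in the GFP-negative fraction and 0.314, 0.562 and 3.87 in the GFP-positive replicates, a 39.2-fold (29.9 to 52.5) excess of the whole culture over the GFP-negative fraction. Its colony lines held 0 to 2.66 CPM with a median of 0.0842, and its sorted lines 0.160 and 0.142. Pappa followed the same order, with 48.0 CPM on day 15, 88.4 in the whole AICAR culture, 2.08 in the GFP-negative fraction and 0, 0 and 0.847 in the GFP-positive replicates. Before day 15 it was at 0.294 CPM in undifferentiated cells, 0.131 after 2 days and 0 once sorted. Line 4, at 0.444 CPM, was the one colony line with Pappa reads, and both sorted lines had 0. For Pappa the ratio of the whole culture to the GFP-negative fraction was 42.5 (24.2 to 82.8).

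Prl2c2 had reads in 4 libraries only. It stood at 9.72 CPM on day 15 without AICAR, 29.2 in the whole AICAR culture, 0.347 in the GFP-negative fraction and 0.242 in GFP-positive replicate 3, and had 0 reads in the other 15. The ratio of the whole culture to the GFP-negative fraction, 84.1, rests on 2 reads in the latter and has an interval of 23.0 to 700.0. Prl2c2 belongs to a family of near-identical copies, so its reads are uncertain. The longest protein-coding transcript of each gene in the GENCODE annotation was compared. That of Prl2c2 matches that of Prl2c3 at 99.5% of 842 aligned bases and shares 635 of its 793 windows of 50 bases with it. The joint entry of Prl2c3 and Prl2c4 had the same order, with 11.7 CPM on day 15, 37.8 in the whole AICAR culture and 0.520 in the GFP-negative fraction. Prl2c5, whose transcript matches Prl2c2 at 96.6% of bases, was in the opposite order at 6.74 CPM on day 15 and 1.43 in the whole culture.

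GFP-positive replicate 3 stood apart from replicates 1 and 2 in these genes. It was the highest of the 3 for all 9. It comes from the first sequencing project, as does the whole culture, and the other replicates come from the second. The list of 12 parietal endoderm markers summed to 15292 CPM in replicate 3 against 884 and 1842 in replicates 1 and 2, and 67410 in the GFP-negative fraction. The fibroblast list summed to 286 CPM in it against 71.5 and 92.9. The part of these other cells, or of the sequencing project, in the levels of replicate 3 was not tested. Within the first project, the whole culture stood above replicate 3 by 5.44-fold (4.90 to 6.05) for Cyr61 and 8.46-fold (7.68 to 9.34) for Ctgf, the smallest ratios of the 9. For Inhba the same ratio was 352 (120.1 to 1712), on 3 reads in replicate 3.

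Compared per length, in RPKM (reads divided by the length of the counted exons and by library size), the order of levels in the whole AICAR culture was Thbs1 at 543, Ctgf at 376, Prss23 at 285, Cyr61 at 222, Csf1 at 129, Ptgs2 at 118, Inhba at 91.0, Prl2c2 at 44.2 and Pappa at 17.4. Csf1 and Ptgs2 were the one pair of neighbours whose counting intervals overlapped, at 123 to 136 and 112 to 125 RPKM. On day 15 without AICAR the order opened with Cyr61 at 568 RPKM, ahead of Thbs1 at 528 and Ctgf at 317, and closed with Prl2c2 at 15.0 and Pappa at 9.57. The place of Prl2c2 in both orders is uncertain. Only reads with a unique alignment were counted, and 635 of its 793 windows of 50 bases are shared with Prl2c3.

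The name activated fibroblast was checked against 15 fibroblast markers, and they bore it out in part. The collagens that fibroblasts lay down were high in the whole AICAR culture, with Col1a1 at 4453 CPM, Col1a2 at 3339 and Col5a1 at 763. They stood at 168, 138 and 64.5 CPM in the GFP-negative fraction. Lum, a fibroblast proteoglycan, had 0 reads in the whole culture, which allows up to 0.478 CPM, against 316 on day 15 without AICAR. Dcn, another, was at 5.26 CPM against 519, the surface marker Thy1 at 3.66 against 68.1 and Fap, a protease of activated fibroblasts, at 0.797 against 21.9. Pdgfra, a receptor of fibroblasts and of extraembryonic endoderm, was lower in the whole culture (169 CPM) than in its GFP-negative fraction (481). No cell type is therefore given for the source of the 9 genes.

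Of the 10 fibroblast markers with 100 reads in the whole AICAR culture, 7 stood more than 2-fold above the highest fraction library, with a median ratio of 11.9. Lox, an enzyme that crosslinks collagen, was at 186 CPM against 3.64, a ratio of 51.0 (33.2 to 82.7). Of the smooth muscle and myofibroblast markers 8 of 8 did, with a median of 7.92. Acta2, smooth muscle actin, was at 1533 CPM against 204, and Des, the muscle filament protein desmin, at 155 against 8.49. The parietal endoderm markers went the other way, with 0 of 12 past 2-fold and a median of 0.360. Lama1, a laminin chain of basement membrane, was at 4462 CPM in the whole culture and 16418 in the GFP-negative fraction. The naive ES cell list summed to 1042 CPM in the whole culture, 840 in the GFP-negative fraction and 1650 to 2203 in the GFP-positive replicates. Klf4 made up 539 CPM of the GFP-negative sum and was the 1 gene of the 8 that was lower in the whole culture than there. Zfp42, the gene of the reporter, was at 248 CPM in the whole culture, 60.8 in the GFP-negative fraction and 463 to 677 in the GFP-positive replicates.

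**Figure D2:**
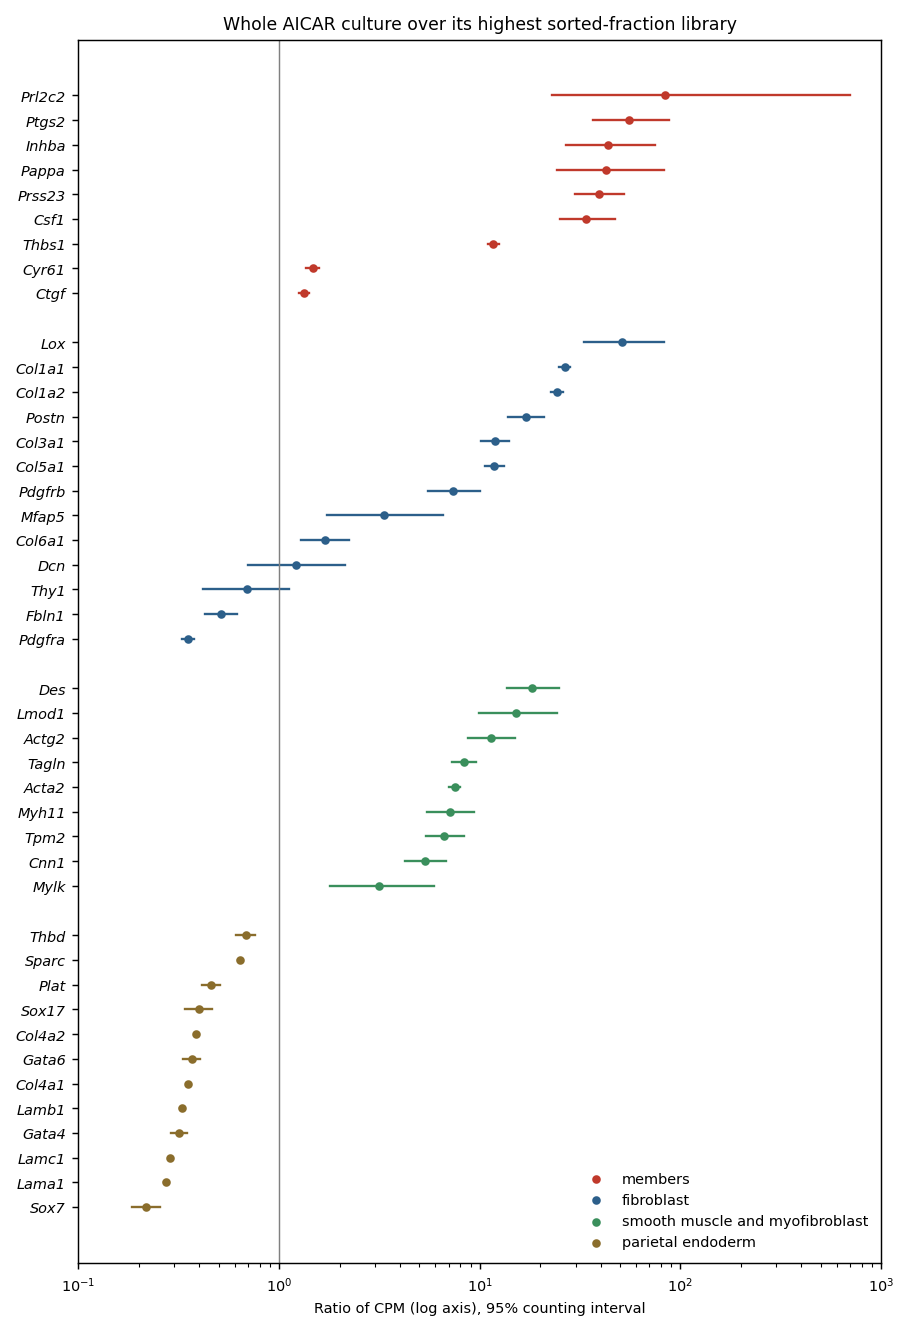
Ratio of the whole AICAR culture to the highest of its 4 sorted-fraction libraries, in CPM on a log axis, with 95% counting intervals, for the 9 genes (red) and the fibroblast, smooth muscle and parietal endoderm marker lists. Fap and Lum, with 0 reads in 1 of the 2 samples, are left out. Ctgf at 1.33 and Cyr61 at 1.47 lie near 1, the other 7 genes lie from 11.7 to 84.1, and all 12 parietal endoderm markers lie below 1.

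Markers of the trophoblast, blood and other lists were read in the same libraries. Of the trophoblast list, Hand1 was at 16.9 CPM in the whole AICAR culture, Prl3d1 at 0.956 and Gcm1 at 0.478, and Prl3b1, Prl4a1, Cdx2 and Tpbpa had 0 reads. The whole list, of which 10 of 11 genes are in the tables, summed to 18.96 CPM in the whole culture and 30.2 on day 15. Of the macrophage and blood list, Emr1, Cx3cr1 and Hbb-bh1 had 0 reads in the whole culture, Ptprc was at 0.637 CPM and Csf1r, the receptor for Csf1, at 7.49. On day 15 Csf1r was at 17.8 CPM and Emr1 at 4.28. Cd68, a lysosomal protein abundant in macrophages, was at 39.8 CPM in the whole culture, 28.8 in the highest fraction library and 8.69 on day 15, a ratio to day 15 of 4.59 (3.49 to 6.10). It was also at 18.5 CPM in undifferentiated cells. Of the 3 list genes with 100 reads in either library, 1 was more than 2-fold above day 15 and 2 were more than 2-fold below, with a median ratio of 0.422. None of the 4 other CSF ligand and receptor genes reached 100 reads in the whole culture. The visceral endoderm list summed to 1925 CPM in the whole culture, 733 in the GFP-negative fraction and 259 on day 15, the endothelial list to 80.1, 109.8 and 154, and the stratified epithelium list (keratins and Trp63) to 13.9, 4.16 and 1380. Their part in the levels of the 9 genes was not tested.

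The whole AICAR culture was next set beside day 15 without AICAR, the arm that differs from it by the compound, with 1 library on each side and no test. The whole culture also took part in choosing the genes. More than 2-fold higher with AICAR were 3 of the 9 genes, Prl2c2 (3.00-fold, 2.28 to 3.98), Ptgs2 (2.87-fold, 2.60 to 3.16) and Csf1 (2.66-fold, 2.44 to 2.90). Over all genes with 100 reads in either library 11.1% were, and the median ratio was 1.08. Pappa was 1.84-fold (1.61 to 2.11), Prss23 1.49-fold (1.40 to 1.59), Inhba 1.32-fold (1.19 to 1.46) and Ctgf 1.21-fold (1.15 to 1.27) higher. Cyr61 alone was lower, at 0.397 (0.377 to 0.419) of its day-15 level, and past 2-fold in that direction, as were 14.6% of all genes. Thbs1 was nearly level at 1.04-fold (1.02 to 1.07), and with TMM scaling at 1.01-fold (0.988 to 1.04), an interval that holds 1.

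The fibroblast markers took another course in the same comparison. None of the 14 with 100 reads in either library was more than 2-fold higher with AICAR and 13 were more than 2-fold lower, with a median ratio of 0.180. Col1a1 was at 0.302 (0.298 to 0.306) of its day-15 level, Col3a1 at 0.0328 (0.0314 to 0.0342) and Dcn at 0.0101 (0.00697 to 0.0143). The summed level of the 15 markers was 42118 CPM on day 15 and 9668 in the whole AICAR culture. Of 9 smooth muscle genes, 5 were more than 2-fold lower and none higher, with a median of 0.463. The highest ratio of a fibroblast marker was that of Pdgfra at 0.864, and 8 of the 9 genes, all but Cyr61, had a higher one. Of the smooth muscle genes, Des was above its day-15 level, at 155 CPM against 132. The whole culture took part in choosing the 9 genes and not the markers, so nothing is read from the difference between them.

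**Figure D3:**
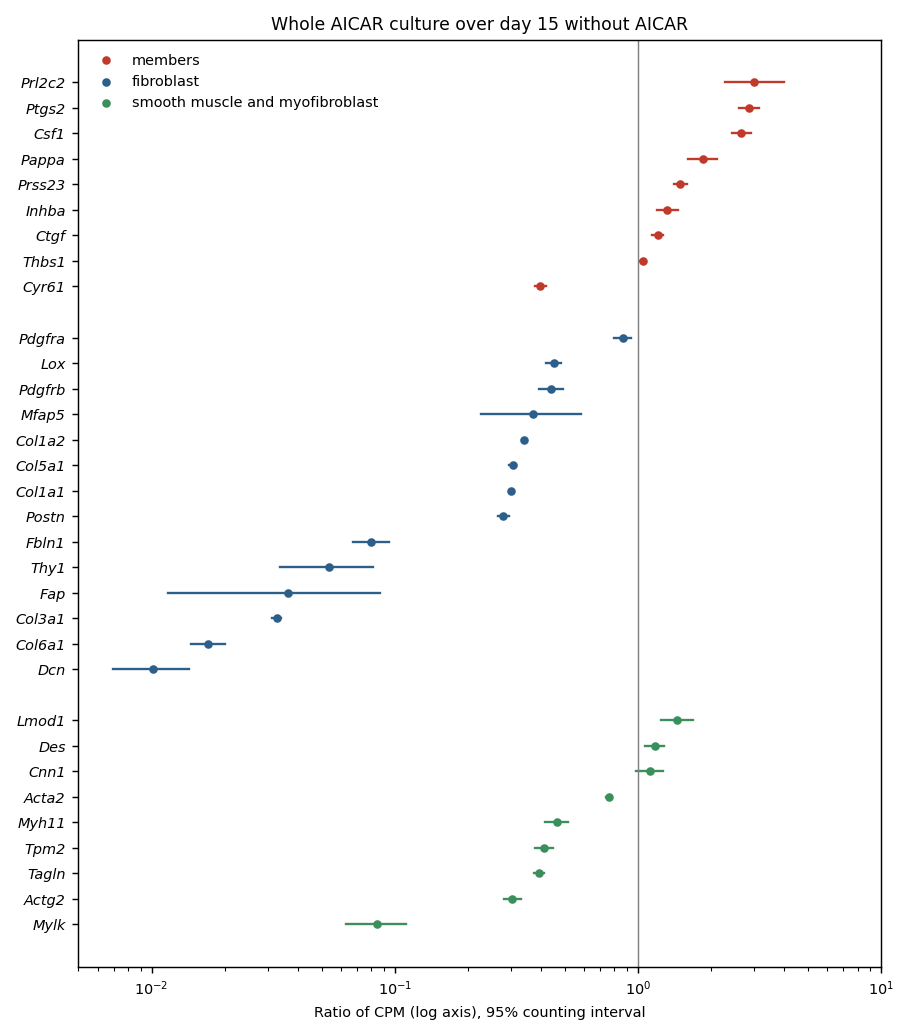
Ratio of the whole AICAR culture to day 15 without AICAR, in CPM on a log axis, with 95% counting intervals, for the 9 genes (red), fibroblast markers (blue) and smooth muscle markers (green). Lum, with 0 reads in the whole culture, is left out. Cyr61 at 0.397 is the one gene of the 9 below 1, and every fibroblast marker lies below 1.

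Pathways of the 9 genes were followed with lists of related genes, each described by its counts. Beside these counts stand the shares of all genes with 100 reads. More than 2-fold above the highest fraction were 4.93%. Against day 15 without AICAR, 11.1% were more than 2-fold higher and 14.6% more than 2-fold lower. YAP and TEAD components and targets other than Ctgf and Cyr61 were split: 4 of the 13 with 100 reads stood more than 2-fold above the highest fraction in the whole AICAR culture. Axl, a receptor kinase, was at 226 CPM against 14.9 in the GFP-negative fraction, and Ankrd1 at 44.8 against 6.06. F3, tissue factor, was in the opposite order at 184 CPM against 603. Against day 15 without AICAR, none of the 13 was more than 2-fold higher and 2 were lower, the latter near the share of all genes.

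Of the TGF-beta ligands and targets, 4 of 9 stood more than 2-fold above the fractions. The ligand gene Tgfb3 was at 66.6 CPM in the whole culture, 2.95 in the GFP-negative fraction and 118 on day 15. Among thrombospondins and their receptors, 2 of 4 stood above the fractions, the integrin gene Itgb3 at 49.5 CPM against 6.06 and Thbs2 at 88.1 against 16.5. Unlike Thbs1, Thbs2 was far lower with AICAR than on day 15 without it, at 686 CPM there.

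For activin, none of 9 other subunits, receptors and inhibitors with 100 reads stood more than 2-fold above the fractions, near the 4.93% of all genes. Inhba was chosen by this contrast and they were not, so nothing is read from the difference between them. The inhibitor Fst (follistatin) was at 78.5 CPM in the whole culture and 199 in the GFP-negative fraction. The coreceptor Tdgf1 was at 141 CPM in the whole culture, 169 in the GFP-negative fraction and 5.96 on day 15 without AICAR.

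For prostaglandins, 1 of 4 genes other than Ptgs2 stood above the fractions. Pla2g4a, the phospholipase that frees arachidonic acid, was at 31.7 CPM against 4.85 in the GFP-negative fraction, and was higher on day 15, at 85.3. Slco2a1, a prostaglandin transporter, was at 37.8 CPM in the whole culture and 141 in the GFP-negative fraction. Ptgs1, the constitutive cyclooxygenase, was at 12.6 CPM in the whole culture and 32.5 on day 15, the reverse of the order of Ptgs2.

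In the pappalysin axis 1 of 5 genes stood above the fractions, and 7 of 9 were more than 2-fold lower with AICAR than on day 15. The growth factor gene Igf2 was at 181 CPM in the whole AICAR culture, 24.1 in the GFP-negative fraction and 1130 on day 15. Igfbp5, a substrate of Pappa, was at 31.4 CPM in the whole culture, 20.1 in the GFP-negative fraction and 385 on day 15. Among secreted proteases and inhibitors, 4 of 7 stood above the fractions, with Plau (urokinase) at 90.2 CPM against 5.89 and Timp3 at 143 against 22.7. Prss35, a relative of Prss23, was in the opposite order at 16.4 CPM against 156. Of the CCN genes, Wisp1 was at 20.4 CPM against 1.21. Hbegf, an EGF-family ligand, was at 47.3 CPM in the whole culture and at most 9.27 in its fractions, and 2.76-fold (2.24 to 3.42) above day 15.

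Immediate early genes, which growth factors and handling induce within minutes, had other courses. Of 11 with 100 reads in the whole AICAR culture, 1 stood more than 2-fold above the fractions (Ier3, at 26.9 CPM against 7.10), and against day 15 none of 14 was more than 2-fold higher and 10 were lower. Fos was at 55.9 CPM in the whole culture, 117 in the GFP-negative fraction and 397 on day 15, and Egr1 at 172, 325 and 748.

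Differentiation from day 2 to day 15 without AICAR was then described. The contrast that chose the genes did not use these libraries, but their levels were in view when the choice was made. On day 15 all 9 genes stood more than 2-fold above undifferentiated cells, against 32.1% of all genes with 100 reads in either library. The ratios ran from 3.08-fold (2.86 to 3.32) for Ctgf and 8.14-fold (7.48 to 8.87) for Cyr61 to 1059-fold (606 to 2051) for Thbs1. Inhba, Csf1 and Prl2c2 had 0 reads in undifferentiated cells and stood at least 219.9-fold, 221-fold and 22.1-fold higher, against a floor of 3 reads. Over the day-2 sorted cells, from which the day-15 culture was grown, Ctgf was 7.04-fold (6.33 to 7.85) and Cyr61 13.2-fold (11.9 to 14.8) higher. Thbs1 was 34.1-fold (30.7 to 37.9) higher. The share of all genes was not taken for this comparison, so no count of the 9 genes is given. By contrast, the day-2 sorted cells were below undifferentiated cells for Ctgf at 0.437 (0.387 to 0.493) and Cyr61 at 0.615 (0.539 to 0.701). The interval held 1 for 6 genes. For these 6 it rests on few reads, such as 0 in both libraries for Prl2c2 and 7 against 1 for Prss23, so no lack of change is read from it.

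Day 15 without AICAR was tested against the 8 colony lines with the edgeR quasi-likelihood test. The lone day-15 library is assumed to vary like the colony lines, and p-values measure the spread between these lines only. All 9 genes were higher on day 15 at a Benjamini-Hochberg adjusted p under 0.05, where 42% of the 14375 genes tested were. The day-15 library stood above all 8 colony lines for each gene. The SE given here were derived from the F statistic of the edgeR test, which reports none itself. Differences in log2 CPM (± SE, from edgeR) were 9.84 ± 0.35 for Inhba (adjusted p = 5.12e-11), 9.15 ± 0.44 for Pappa (adjusted p = 9.15e-10) and 8.11 ± 0.47 for Prss23 (adjusted p = 4.73e-09). They were 8.08 ± 0.70 for Thbs1 (adjusted p = 2.46e-07), 7.40 ± 0.53 for Csf1 (adjusted p = 3.37e-08) and 6.57 ± 0.34 for Ptgs2 (adjusted p = 1.97e-09). The changes of Cyr61, 3.86 ± 0.26 (adjusted p = 2.12e-08), and Ctgf, 2.56 ± 0.35 (adjusted p = 1.62e-05), were the smallest. Prl2c2 (adjusted p = 3.35e-05) had 0 reads in all 8 lines and was at least 179-fold higher, taking 3 reads over all 8 lines as the limit. The median difference of all genes was 0.13 with TMM and 0.24 with DESeq2's size factors. With DESeq2, Pappa lost its call (adjusted p = 0.0653), and over all 12 alternatives its adjusted p ran from 9.65e-11 to that value.

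The same test called most genes of the related lists. Of the tested genes, 13 of 14 immediate early genes, 11 of 14 of the YAP and TEAD list, 8 of 9 of the TGF-beta list and 15 of 15 fibroblast markers were higher on day 15. So were 9 of 11 prostaglandin genes, 8 of 11 activin genes, 9 of 9 genes of the pappalysin axis and 11 of 11 proteases and inhibitors. Tdgf1, at -5.85 ± 0.20 (adjusted p = 3.27e-11), and Ptges3, a prostaglandin E synthase and cochaperone, at -1.82 ± 0.13 (adjusted p = 4.51e-08), were lower on day 15 than in the colony lines by edgeR.

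The day-2 sorted cells were tested against the colony lines in the same way. Of the 9 genes, 6 had enough reads to be tested, and 1 was called, Thbs1, higher by 3.15 ± 1.01 in log2 CPM (edgeR adjusted p = 0.0259). Over all genes, 20.6% were called higher. DESeq2 did not call Thbs1 (adjusted p = 0.0609), and over 12 alternatives its adjusted p ran from 1.93e-05 to that value. It was the one library against 8 lines, and at 54.7 CPM it lay above the highest line, at 24.7. For the other genes tested, the differences were between -1.61 for Csf1 and 0.45 for Prss23 and did not pass.

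The lines grown back from GFP-positive cells were set against undifferentiated ES cells, a comparison that bears on whether the genes were back at their starting level. None of the 6 genes tested passed in edgeR or in DESeq2, and 2 had an unadjusted edgeR p under 0.05. These were Cyr61, at 42.3 ± 12.8 CPM in the colony lines (SD, n = 8) against 89.0, a log2 difference of -1.07 ± 0.34 (edgeR adjusted p = 0.156), and Ctgf, at 58.0 ± 23.2 (SD, n = 8) against 131, a difference of -1.18 ± 0.40 (edgeR adjusted p = 0.172). The test called 0.0325% of 12314 genes in either direction, 4 genes, and a single undifferentiated library stands on 1 side. Between colony and sorted lines, 0 of the 5 genes tested passed in edgeR or DESeq2, and 0 had an unadjusted edgeR p under 0.05. edgeR called 0% of all genes there, although 1092 had an unadjusted p under 0.05 and DESeq2 called 2. For Thbs1 the difference was 2.78 ± 1.65 (edgeR adjusted p = 0.587).

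Among the colony lines, low levels of some of the 9 genes were found in the same lines. Thbs1 was at 24.7 CPM in line 4, 12.2 in line 5 and 5.03 in line 1, and at 0.282 to 2.04 in the other 5. Prss23 was at 2.66 CPM in line 4, 1.84 in line 5 and 1.12 in line 1, at 0.168 in line 7 and at 0 in the others. Csf1 was at 1.77 CPM in line 4 and 1.70 in line 5, and at most 0.168 in the other 6. Ptgs2 was highest in lines 4 (1.92 CPM), 5 (0.991) and 1 (0.838). These values rest on few reads, for Csf1 on 26 reads over the 8 lines. Ctgf and Cyr61 had another order: line 5 was the highest for both, at 103 and 62.0 CPM, and line 7 the lowest, at 30.8 and 23.1.

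Markers of differentiated cells moved with these lines. Col1a1 was at 73.0 CPM in line 4 and 0.563 to 8.66 in the others. Acta2 was at 53.4 CPM in line 4, 87.1 in line 5, 9.64 in line 1 and 1.18 to 2.36 in the rest, and Col4a1, a basement membrane collagen, at 184, 665 and 82.8 against 19.4 to 35.7. The smooth muscle list summed to 96.9 CPM in line 4, 163 in line 5 and 24.0 in line 1, and to 8.14 to 12.97 elsewhere, while the fibroblast list summed to 217 in line 4 and 83.7 to 109 in the other 7. The parietal endoderm list summed to 1375 CPM in line 4, 2341 in line 5 and 1148 in line 1, and to 721 to 1095 in the rest. Egr1 ran the other way, at 9.34 to 10.5 CPM in lines 1, 4 and 5, 21.9 in line 7 and 115 to 163 in lines 3, 6, 9 and 10. The part of these in the levels of the 9 genes was not tested. Leaving out lines 4 and 5 changed no count of genes called in the 4 tests.

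**Figure D4:**
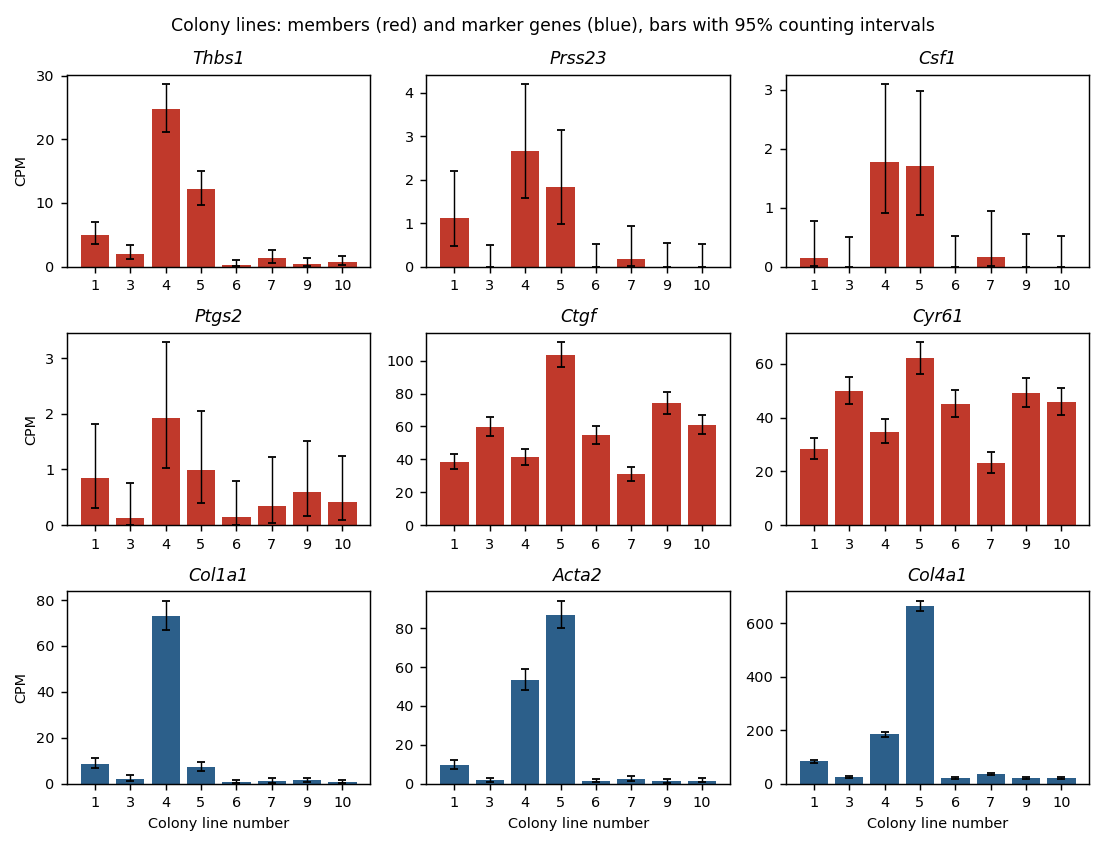
Level of 6 of the 9 genes (red) and of Col1a1, Acta2 and Col4a1 (blue) in the 8 colony lines, in CPM, as bars with 95% counting intervals. Lines 4 and 5 are highest for Thbs1 (24.7 and 12.2), Prss23, Csf1 and Ptgs2, and Ctgf and Cyr61 are lowest in line 7.

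The genes whose levels over the 9 groups were most like the 9 genes were named by Pearson's r to their mean standardised profile, among 11201 entries with at least 10 CPM in some group. They were Csrp1 (r = 0.998), Lrrc32 (r = 0.995), Jph2 (r = 0.993), Vgll3 (r = 0.993), Shroom1 (r = 0.992), Axl (r = 0.992), Col8a1 (r = 0.989) and Cd248 (r = 0.989). The r of the 9 genes to their own mean, which contains them, ran from 0.891 for Ctgf to 0.993 for Inhba. Csrp1 was at 162 CPM on day 15, 178 in the whole AICAR culture and 47.5 in the GFP-negative fraction, and Lrrc32, a surface protein that holds latent TGF-beta, at 42.7, 56.9 and 3.47. These r rest on 9 points, of which day 15 and the whole culture are far above the rest. By Spearman's rank correlation, 0 of the 8 genes stayed among the top 8.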

How the data were processed

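RNA was measured in 19 bulk libraries made with a stranded mRNA kit, per the labels' protocols. The authors' deposited counts give whole reads with a unique alignment for each RefSeq gene, from rpkmforgenes run with no strand option, per the file headers, so reads of antisense partners cannot be told apart. The RPKM values were computed by the authors from them with 3′ untranslated regions left out, per the file headers. Reads were processed with bcl2fastq, CASAVA 1.8.2, Trimmomatic 0.3.3, TopHat2 2.0.14 and Bowtie2 2.2.5 on mouse build mm9, per the submitters' processing notes. No gene coordinates of mm9 were used here.

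CPM are counts scaled to 1000000 reads in genes. Samples were grouped by title. The 9 genes and the 21 lists were chosen with earlier results of these data known. Comparisons of 1 library with 1 use a 2-fold threshold, genes with at least 100 reads (in the whole culture against its fractions, otherwise in either library) and exact conditional binomial 95% intervals. Where a group had no reads, 3 reads over that group were taken as its upper limit. These limits and the intervals hold counting error alone, because PCR copies were not marked with molecular identifiers. Tests used the edgeR 4.0.16 quasi-likelihood test in R 4.3.3 with TMM scaling, its expression filter (minimum count 10, total 15) and Benjamini-Hochberg adjusted p under 0.05, fitted over all genes with the compared libraries only, and were tested on simulated data. This test reports no SE. The SE printed with an edgeR difference is its absolute size divided by the square root of the test's F statistic. DESeq2 1.42.0 was an alternative. Others were RLE size factors, no filter, leaving out each line, TMM scaling over all libraries and the deposited RPKM. Likeness of profiles used log2 of CPM plus a pseudocount of 1. Agreement of replicates, as chi-square per degree of freedom over 32 pairs of libraries, was 1.89 to 47.4, where 1 is counting noise, so none was counted as a duplicate. Whether replicates came from separate cultures is not stated in the labels, so a p-value speaks for the scatter of these libraries alone.

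Genes other than the 9 were named by rule: of each pathway list, those with at least 10 CPM in the whole AICAR culture and the largest and smallest ratio to the highest fraction, up to 2 each, and up to 2 with the smallest adjusted p, and of each marker list the 3 highest and those with 0 reads. Dcn, Thy1, Fap, Pdgfra, Lox and Col3a1 were added after their values were seen. One gene that the rule names is not reported here. Promoter sequences are RefSeq's (GRCm38.p6).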

Additional observations from a re-analysis of the deposited data

Results flagged for a closer look

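In the 8 colony lines, Inhba and Pappa each had 1 line far from the others: line 4 stood at 0.444 CPM for both genes, which is 3 reads for each. The nearest other line was at 0.140 CPM for Inhba and at 0 for Pappa. The gap to the nearest line, as a share of the group's range, was above Dixon's 95% critical value. That value assumes normally distributed levels, and here the other lines held 0 or 1 reads, so its error rate does not hold. For Pappa 7 lines were at 0, which fixes the share at 1. Nothing is read from these flags. Line 4 was also the highest colony line for Thbs1, Prss23, Csf1 and Ptgs2.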

How the results depend on the processing

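Of 306 log2 differences of the 9 genes recomputed under the alternatives, 298 kept their direction and their side of the threshold, 2 lost their call (Pappa and Thbs1 with DESeq2, as given above) and 6 changed sign, all of them far from the threshold. Ctgf in day-2 sorted cells against colony lines turned to 0.033 without lines 4 and 5, and ran from -0.18 to 0.081 (without line 5) over the lines left out singly. Ptgs2 in colony lines against undifferentiated cells turned to 0.024 without line 3 and 0.018 without line 6, in a range from -0.23 to 0.024. Thbs1 in the same comparison turned to -0.092 without lines 4 and 5. Ctgf in colony against sorted lines turned to -0.014 without line 5, in a range up to 0.25. The cause was not tested. Leaving out lines 4 and 5 together was chosen after seeing the data. With DESeq2, 0 of the 9 genes were called in day-2 sorted cells against colony lines, where edgeR called 1. Over all genes, colony lines against undifferentiated cells gave 4 calls by edgeR, with 2385 genes at an unadjusted p under 0.05, and 383 calls by DESeq2. The count of 7 of 9 genes past 2-fold in the whole AICAR culture was the same with RPKM and with TMM scaling, and leaving out a GFP-positive library cannot change it because the GFP-negative library is the highest for all 9. This contrast chose the genes, so nothing is read from that. TMM scaling over all libraries (factors 0.931 to 1.16) moved 21 of 81 group means. A move was counted when it passed the SD or, in a group of 1 library, left the counting interval. Most of these moves lowered levels in single libraries, on day 15 without AICAR (factor 1.12) and in the whole AICAR culture (factor 1.16). The Ctgf ratio of the whole culture to the GFP-negative fraction moved from 1.33 to 1.25. No paired analysis was possible because the tested groups share at most 1 replicate number. Single libraries on day 2, on day 15 and in the whole AICAR culture limit these comparisons.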
